A study of Drosophila melanogaster with 6 samples.

Results

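The imaginal disc growth factors of the fruit fly Drosophila melanogaster were examined in blood cells (hemocytes) that circulate in the larva. The members were chosen by name: Idgf1, Idgf2, Idgf3, Idgf4, Idgf5 and Idgf6, each represented by the probe set of highest mean among those whose only gene symbol in the array annotation is that gene. All 6 genes were measured, through 7 such probe sets of the 18769 tested, and they are 6 of 11982 genes with a single-gene probe set on the array. The 3 control samples carried hml-Gal4 and UAS-2xEGFP, a driver active in hemocytes that express the clotting gene Hemolectin and a fluorescent reporter of its activity. In the 3 Idh-R195H samples these were joined by UAS-Idh-R195H, the fly counterpart of the human IDH1 mutant R132H found in cancers. All larvae came from egg lays of 24 hours at 29 °C and were wandering larvae of instar 3 harvested on day 7. Each sample pooled the hemocytes of 400 larvae, freed into the medium with the lymph gland spared, and was hybridised to 1 array. The genotypes were compared to find genes that differ in hemocytes that express the mutant enzyme.

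Imaginal disc growth factors are secreted proteins of the chitinase-like family. They have the fold of chitinases but lack their catalytic activity, and were named from proteins of medium conditioned by imaginal disc cells, which act with insulin on the growth of such cells in culture. In the larva they are made by the fat body and by hemocytes and enter the hemolymph, and members of the family are known to act in cuticle formation and wound closure.

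The values were linear intensities of probe sets. The median of an array lay between 76.6 and 107 and the trimmed mean was the same on every array, so that levels are relative to the rest of an array. The blood cell markers He and Hml, a pan-hemocyte surface protein and the clotting protein Hemolectin, were bright on all 6 arrays, between 16785 and 21649 for He and between 12663 and 22128 for Hml. The array set was uneven in other ways. Summed salivary gland markers were at 23198, 225222 and 229889 on control replicates 1, 2 and 3 and between 1005.5 and 4936 on the Idh-R195H arrays, so control replicate 1 stood apart from the other controls in these markers. It correlated at 0.908 with control replicate 2, at 0.876 with control replicate 3 and at 0.900 to 0.913 with the Idh-R195H arrays (Pearson, across probe sets, which are not independent replicates). The ratio of 3' to 5' intensity for Act5C, which rises as RNA is degraded, was 4.78 ± 1.26 (SD, n = 3) in control against 2.28 ± 0.13 (SD, n = 3) in Idh-R195H. The transcript of Idh itself rose in the Idh-R195H samples (log2 fold change 1.30 ± 0.19 (SE), limma adjusted p = 0.0319), which is the direction of the labels.

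The family did not move as one. Idgf2 rose 3.36-fold in Idh-R195H hemocytes and was the only member past the threshold, an adjusted p below 0.05 in limma over all probe sets. Idgf1 was higher on every Idh-R195H array than on any control array, Idgf3 was at the same level within its spread, and Idgf6 and Idgf4 were lower on every Idh-R195H array than on any control array, all without passing. Idgf5 was dim and its groups overlapped. Thus 1 of 6 members was called, and it was called higher, against 3.11% of all probe sets called in either direction and 1.9% called higher. The arrays of the genotypes did not overlap for 4 of 6 members, 2 above and 2 below, against 28.8% of all probe sets (12.6% above and 16.2% below). An unadjusted limma p below 0.05 was found for 4 of 6 members, against 20.2% of all probe sets. A log2 fold change of at least 1 in size was found for 5 of 6 members, against 20.3% of those tested. The 6 members had a median log2 fold change of -0.59, beside -0.11 for everything tested. Exact two-sided permutation tests on 3 against 3 arrays cannot give a p below 0.1, and gave exactly 0.1 for the 4 members that did not overlap. Separate cultures or crosses behind the replicates are not described beyond the word biological in the labels, so p-values measure the spread between these pools.

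**Figure D1:**
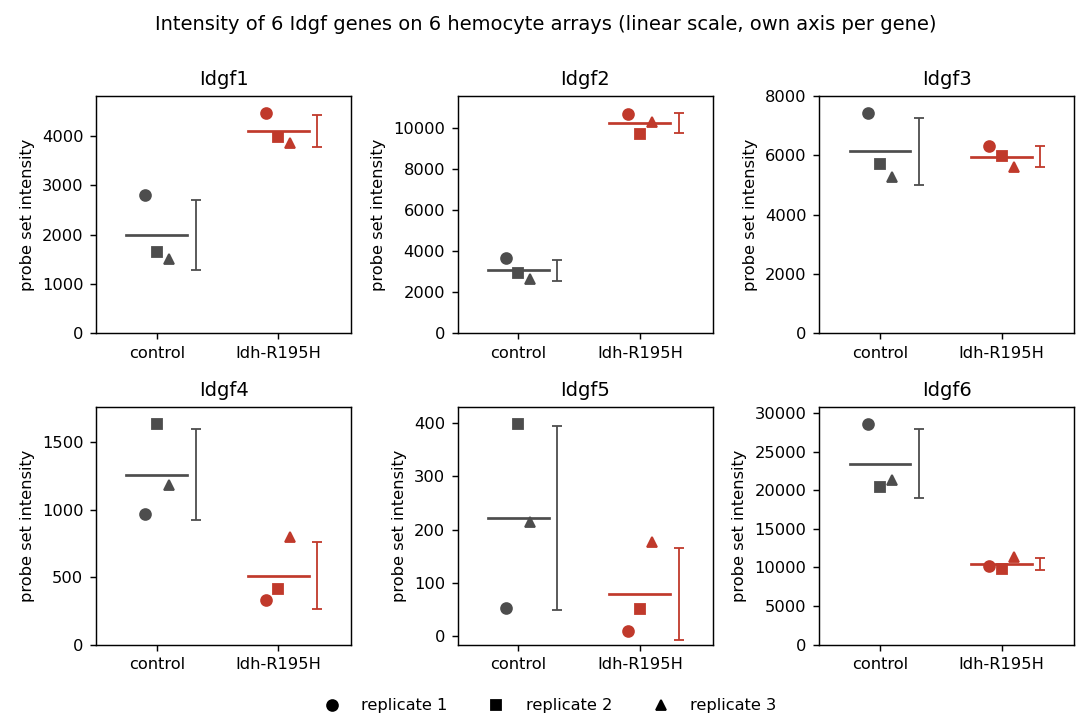
Probe set intensity (linear vertical axis, 1 axis per gene) of the 6 Idgf genes on 3 control (grey) and 3 Idh-R195H (red) arrays, with marker shape for the replicate number, a bar at the mean and error bars of 1 SD beside the points. Idgf1 and Idgf2 lie higher and Idgf4 and Idgf6 lower on all Idh-R195H arrays, while Idgf3 and Idgf5 overlap.

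Idgf2 (CG4475, chromosome 2L) was at intensities of 3651, 2924 and 2650.3 on control replicates 1, 2 and 3, and at 10711, 9727 and 10284 on Idh-R195H replicates 1, 2 and 3. The lowest Idh-R195H array was far above the highest control array, and the spread within each genotype was small, with a coefficient of variation of 16.8% in control and 4.82% in Idh-R195H. The means were 3075 ± 517 and 10241 ± 494 (SD, n = 3 each). The log2 fold change was 1.75 ± 0.21 (SE), with a 95% interval of 1.22 to 2.28 and a limma adjusted p of 0.0204, the rank of 192 by p among all probe sets. Leaving out control replicate 1, the sample that stood apart, gave 1.88 with an adjusted p of 0.0213. Idgf2 no longer passed without control replicate 2 (adjusted p = 0.0847) or without Idh-R195H replicate 1, 2 or 3 (0.1, 0.109 and 0.0913), although the log2 fold change then stayed between 1.71 and 1.78.

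Idgf1 (CG4472, chromosome 2L), the gene next to Idgf2 on its chromosome, had the second positive fold change of the family. Its intensity was 2804, 1651 and 1509 on control replicates 1, 2 and 3, and 4464, 3984 and 3855 on Idh-R195H replicates 1, 2 and 3. Control replicate 1 was the highest control and came closest to the Idh-R195H arrays, but the groups did not overlap. Means were 1988 ± 710 and 4101 ± 321 (SD, n = 3 each), a log2 fold change of 1.10 ± 0.30 (SE), with a 95% interval of 0.37 to 1.83 and a limma adjusted p of 0.124. Without control replicate 1 the log2 fold change was 1.37 and the adjusted p 0.0345. The call thus depended on this array, and also on the processing, as given below.

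Lamellocyte markers, genes of the large flat hemocytes that form capsules around parasites, were higher in the same samples. All 9 measured markers were above control on every Idh-R195H array and 7 of 9 passed, against 12.6% and 1.9% of all probe sets, and none was below an intensity of 100 on all arrays. Their summed intensity was between 7313 and 10048 in control and between 81215 and 91629 in Idh-R195H. Plasmatocyte markers, genes of the phagocytic blood cells, summed to between 101466 and 163909 in control and to between 107003 and 111341 in Idh-R195H. Of these, 0 of 9 passed and 3 of 9 had an unadjusted limma p below 0.05, against 3.11% and 20.2% of all probe sets. The markers were mixed, with 2 positive and 7 negative log2 fold changes. For 4 of 9 the arrays did not overlap, against 28.8% of all probe sets: Sr-CI was above control, and eater, Pxn and crq were below. In these bulk samples, a different number of cells of a type and a different amount of RNA per cell cannot be told apart, and the part of the lamellocyte markers in the higher Idgf1 and Idgf2 intensities was not tested.

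Idgf3 (CG4559, chromosome 2L), a member known to act in clotting and wound healing, did not differ beyond its spread. Its intensity was 7422, 5719 and 5256 on control replicates 1, 2 and 3 and 6303, 5977 and 5599.9 on Idh-R195H replicates 1, 2 and 3. The Idh-R195H values lay within the range of the control values. The log2 fold change was -0.03 ± 0.22 (SE), with a 95% interval of -0.57 to 0.52 and a limma adjusted p of 0.972. Its probe set has a name ending used where its probes can match more than 1 transcript. A dimmer, second probe set of Idgf3 had means of 202 ± 100 in control hemocytes and of 229 ± 32.9 with Idh-R195H (SD, n = 3 each; log2 fold change 0.28 ± 0.38 (SE), limma adjusted p = 0.767). The sign for Idgf3 is not settled: it turned positive with this second probe set, without control replicate 1 (0.12), without Idh-R195H replicate 3 (0.02) and under 2 of the scalings given below.

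Idgf6 (CG5210, chromosome 2R), known as a glycoprotein secreted by fat body and hemocytes, lay in the opposite direction. It was at 28564, 20389 and 21386 on control replicates 1, 2 and 3 and at 10134, 9836 and 11365 on Idh-R195H replicates 1, 2 and 3. No Idh-R195H array reached the lowest control array, and again the Idh-R195H arrays were the more alike, with a coefficient of variation of 7.76% against 19.0% in control. Means were 23446 ± 4460.2 and 10445 ± 811 (SD, n = 3 each), a log2 fold change of -1.15 ± 0.23 (SE), with a 95% interval of -1.71 to -0.60. The limma adjusted p was 0.0608, on the other side of the threshold from Idgf2. It was 0.0543 without control replicate 1, where the log2 fold change was -1.002.

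**Figure D2:**
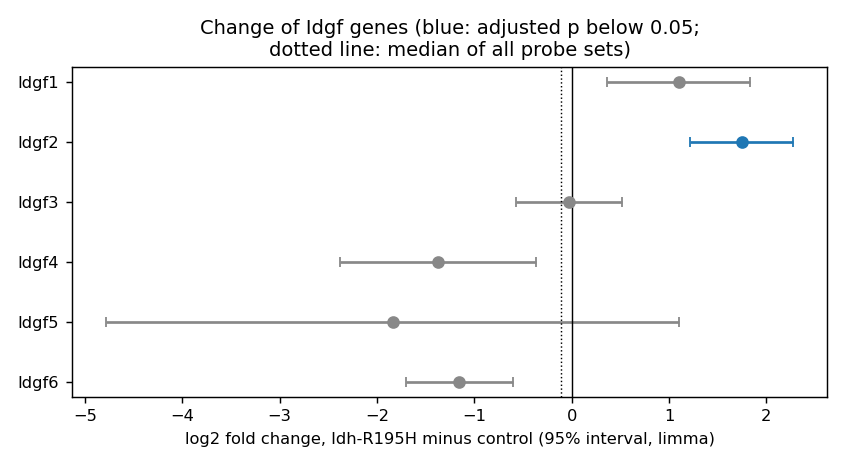
Log2 fold change of each Idgf gene, Idh-R195H minus control, with the 95% interval from limma (horizontal axis), blue where the adjusted p is below 0.05 and grey otherwise. The interval of Idgf2 runs from 1.22 to 2.28, those of Idgf4 and Idgf6 lie below 0 without passing over all probe sets, and that of Idgf5 is the widest.

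Idgf4 (CG1780, chromosome X) was at 968, 1632 and 1180 on control replicates 1, 2 and 3 and at 327, 411 and 796 on Idh-R195H replicates 1, 2 and 3. The groups did not overlap, but Idh-R195H replicate 3 was close to control replicate 1. Means were 1260 ± 339 and 511 ± 250 (SD, n = 3 each), a log2 fold change of -1.37 ± 0.41 (SE), with a 95% interval of -2.38 to -0.37 and a limma adjusted p of 0.146. Without control replicate 1 the log2 fold change was -1.55 and the adjusted p 0.12. The probe set of Idgf4 carries the same name ending for shared probes as that of Idgf3.

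Idgf5 (CG5154, chromosome 2R) was dim and the most variable member. It was at 53.7, 399 and 214 on control replicates 1, 2 and 3 and at 10.3, 50.3 and 177 on Idh-R195H replicates 1, 2 and 3, and was above the array median on 3 of 6 arrays. The values spread widely within each genotype, and Idh-R195H replicate 3 was above control replicate 1. The log2 fold change was -1.84 ± 1.20 (SE), with a 95% interval of -4.78 to 1.11 and a limma adjusted p of 0.467. It was -2.65 without control replicate 1, and over the arrays left out in turn it ran from -2.80 to -0.81, so its size is not settled by these arrays.

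Markers of the fat body, the larval organ of storage and of hemolymph protein synthesis, varied between arrays too. The 4 measured markers (Lsp2, Fbp1, Fbp2 and apolpp) summed to 44374, 122474 and 101508 on control replicates 1, 2 and 3 and to 6296, 19105 and 55853 on Idh-R195H replicates 1, 2 and 3. All 4 had negative log2 fold changes, and none was below an intensity of 100 on all arrays. Of the 4, 0 passed and 1 had an unadjusted limma p below 0.05, against 3.11% and 20.2% of all probe sets. Within each genotype, the order of the arrays was the same for these markers as for Idgf4 and Idgf5: replicate 2 was the highest and replicate 1 the lowest in control, and replicate 3 was the highest and replicate 1 the lowest in Idh-R195H. This order was not found for Idgf6, which was highest on control replicate 1, the control with the lowest fat body sum. The order of Idgf1 and Idgf3 was the reverse of the fat body order in Idh-R195H. In control, Idgf1, Idgf2 and Idgf3 ran in the order of the lamellocyte sum, the reverse of that of the Act5C 3' to 5' ratio. Neither held in Idh-R195H. How many of all probe sets share any of these orders was not counted, so they are a description only. Other marker sums were also lower in Idh-R195H. Midgut markers summed to between 770 and 26095 in control and to between 271 and 583 in Idh-R195H. The highest of these sums was mostly 1 gene, Jon65Aiii, at 25150 on control replicate 2. Of the 7 measured midgut markers 2 had positive and 5 negative log2 fold changes, and 3 were below an intensity of 100 on all arrays. In limma 0 of 7 passed and 3 had an unadjusted p below 0.05, against 3.11% and 20.2% of all probe sets. Of 6 listed larval epidermis markers 2 were measured, both below an intensity of 100 on all arrays. They summed to between 86.7 and 99.0 in control and to between 60.8 and 80.1 in Idh-R195H. The 2 genes differed in sign, with log2 fold changes of -0.62 for Tb and 0.59 for Cpr49Aa. Crystal cell markers, genes of the blood cells that carry out melanization, summed to between 61862 and 64531 in control and to between 29199 and 49227 in Idh-R195H. Of these 5 genes, 4 were negative and 1, CG17109, was called higher, against 1.9% of all probe sets. Larval muscle markers summed to between 1050 and 1532 in control and to between 380 and 746 in Idh-R195H. Of these 5 genes, 0 passed in limma and 2 had an unadjusted p below 0.05, against 3.11% and 20.2% of all probe sets. The part of the fat body, crystal cell, muscle, midgut, epidermis and salivary gland markers in the lower Idgf4, Idgf5 and Idgf6 intensities was not tested. Whether the unequal Act5C ratios of the genotypes have a part in any of the Idgf changes was not tested either.

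**Figure D3:**
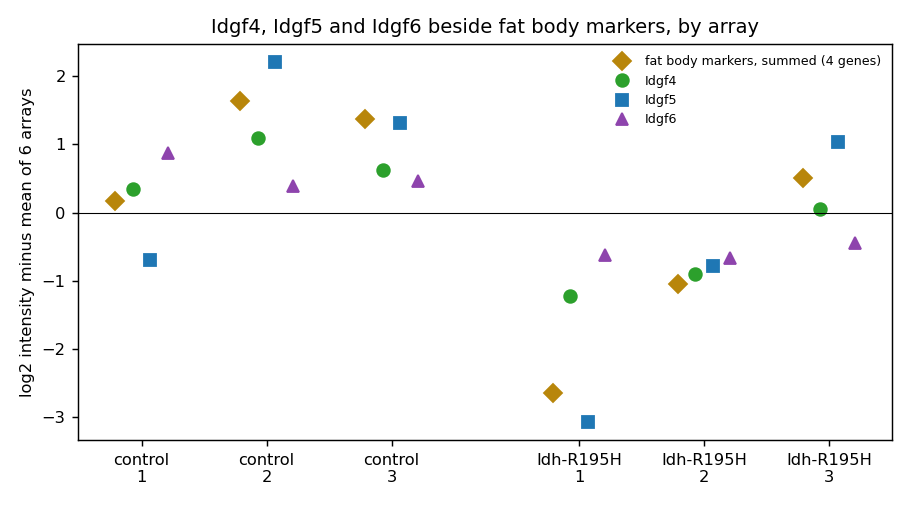
Log2 intensity minus its mean over the 6 arrays (vertical axis) for Idgf4, Idgf5, Idgf6 and the summed intensity of 4 fat body markers, by array. Idgf4 and Idgf5 are low where the marker sum is low within each genotype, whereas Idgf6 separates the genotypes with little spread inside Idh-R195H.

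Because the deposited scaling sets each array against its own average, the members were also compared with each other inside each array, where scaling cancels. The log2 ratio of Idgf3 over Idgf2 was 1.02, 0.97 and 0.99 on control replicates 1, 2 and 3, and -0.76, -0.70 and -0.88 on Idh-R195H replicates 1, 2 and 3. This ratio was almost constant inside control and differed by -1.77 between the genotypes, with no overlap of the arrays. By construction such a difference equals that between the 2 log2 fold changes given above, so only the spread inside each genotype is new. The log2 ratio of Idgf6 over Idgf2 was 2.97, 2.80 and 3.01 in control and -0.08, 0.02 and 0.14 in Idh-R195H, a difference of -2.90. For Idgf1 and Idgf2, the members with positive fold changes, the arrays did not overlap either: the log2 ratio of Idgf2 over Idgf1 was 0.67 ± 0.25 in control and 1.32 ± 0.08 in Idh-R195H (SD, n = 3 each). Idgf6 over Idgf3 went from 1.93 ± 0.10 to 0.81 ± 0.19 (SD, n = 3 each). By contrast the ratio of Idgf6 over Idgf4 was 4.23 ± 0.62 in control and 4.45 ± 0.57 in Idh-R195H, within its spread. Over the 15 pairs of members the exact two-sided permutation p was at least 0.1, the smallest that 3 against 3 arrays allow, and at least 0.188 after adjustment over the pairs, so that none could pass. The ratios of the genotypes overlapped for all 5 pairs with Idgf5. Only differences of these ratios between genotypes can be read, because probe sets differ in brightness for reasons other than transcript level.

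**Figure D4:**
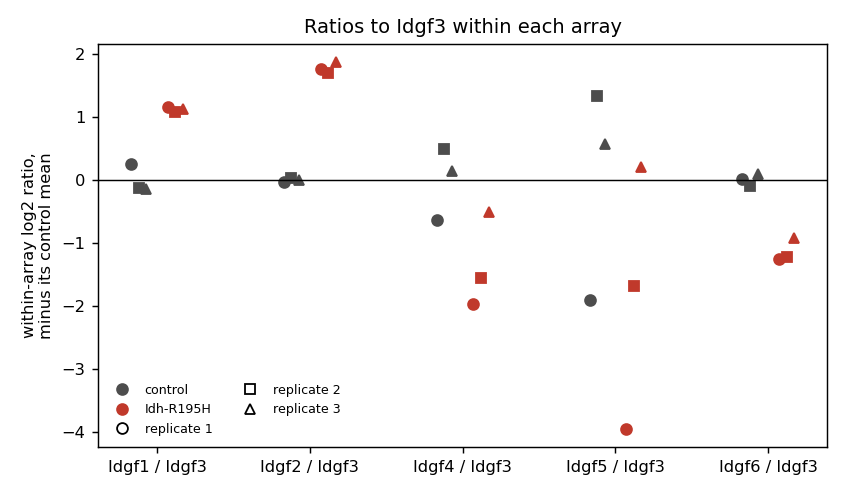
Within-array log2 ratio of 5 Idgf genes to Idgf3, each minus its mean over the control arrays (vertical axis), for 3 control (grey) and 3 Idh-R195H (red) arrays with marker shape for the replicate number. Idgf1 and Idgf2 lie above and Idgf6 below all controls relative to Idgf3, while Idgf4 and Idgf5 overlap.

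Among the scalings run, the size of the changes, and the direction for Idgf3, depended on how arrays were set against each other. Bacterial transcripts added at hybridisation gave signals on the control arrays that were 1.89 times those on Idh-R195H arrays (median over 18 probe sets). Scaling on them moved the median of all probe sets from -0.11 to 0.91. Under this scaling the log2 fold changes were 2.14 for Idgf1, 2.79 for Idgf2 and 1.02 for Idgf3 (limma adjusted p of 0.00508, 0.0021 and 0.0112), while Idgf4, Idgf5 and Idgf6 were at -0.33, -0.81 and -0.11 and did not pass. Relative to the median of all probe sets under that scaling, Idgf2 was at 1.88, Idgf1 at 1.24, Idgf3 at 0.11 and Idgf6 at -1.02, beside 1.86, 1.21, 0.08 and -1.04 with the deposited scaling. A factor per array moves all genes nearly alike, so these relative values are set by construction and are no check of the result. The Idgf6 intensity was lower relative to other genes, and its log2 fold change was near 0 against the hybridisation controls. A second set of added transcripts, the polyA controls, differed more. Their signals on control arrays were 2.61 times those on Idh-R195H arrays (median over 24 probe sets). The polyA median of an array was between 513 and 822 in control and between 221 and 323 in Idh-R195H. No scaling on the polyA controls was run. A larger factor would raise every log2 fold change further than the hybridisation controls did. The negative sign of Idgf6, at -0.11 with the hybridisation controls, may therefore not hold under it. The signs of Idgf4 and Idgf5 under it were not determined. With quantile normalization Idgf6 was at -0.86 and with arrays centred on their medians at -0.89, and Idgf3 was at -0.06 and 0.23.

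**Figure D5:**
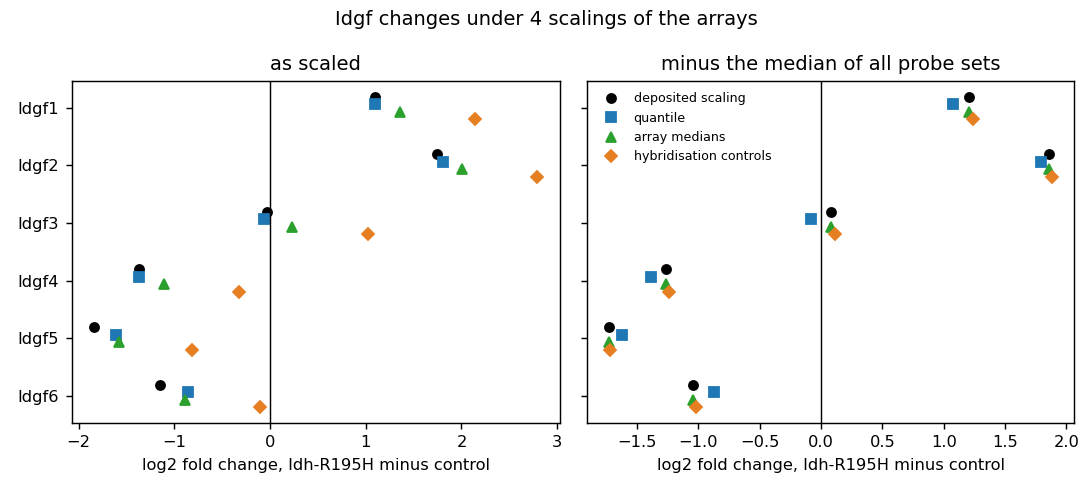
Log2 fold change of each Idgf gene, Idh-R195H minus control (horizontal axis), under 4 scalings of the arrays, as scaled on the left and minus the median of all probe sets on the right. On the left Idgf6 runs from -1.15 to -0.11 and Idgf3 crosses 0. On the right the values for a factor per array (array medians and hybridisation controls) lie near those of the deposited scaling by construction.

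Genes whose profile over the 6 arrays was nearest to each member were sought among genes with a mean intensity of at least 100, by Euclidean distance between centred log2 profiles. With 6 arrays this is a description of likeness in these libraries, which share their RNA pools. Idgf2 was nearest to twf, which encodes the actin monomer binding protein twinfilin (distance 0.25, Pearson r 0.994), and to sigmar (0.28, r 0.993). Both were called higher, but they were chosen for likeness to Idgf2 on these same arrays. Their calls and high r thus follow from the choice. Idgf1 was nearest to Dhpr, a pteridine reductase (0.15), and CG31342 (0.18), and Idgf3 to Nmnat, an enzyme of NAD synthesis (0.07), and alpha4GT1 (0.08). Idgf6 was nearest to CG13919 and CG2162 (0.17 and 0.22). Idgf4 lay nearest to pug, an enzyme of folate metabolism (0.29), and GstE12, a glutathione S-transferase (0.33). Idgf5 lay nearest to CG30288 and to Obp99c, an odorant binding protein gene (0.39 and 0.57). The distances grew with the spread of a member, so they are not comparable between members.

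In the RefSeq gene table Idgf1, Idgf2 and Idgf3 follow each other on chromosome 2L, with CG5888 as the next protein-coding gene on one side and dac, an eye and leg transcription factor gene, on the other. The log2 fold changes along this stretch differed in sign and size. CG5888 had a log2 fold change of -0.01 ± 0.27 and dac, at intensities up to 71.1, of -1.48 ± 0.38 (SE), neither past the threshold (limma adjusted p of 0.99 and 0.111), next to 1.10, 1.75 and -0.03 for the 3 Idgf genes. Idgf5 lies between the genes of Bomanin immune peptides and of glutathione S-transferases on 2R. There BomS6, its direct neighbour, had means of 80.7 ± 25.8 and 548 ± 341 in control and Idh-R195H (SD, n = 3 each; limma adjusted p = 0.0895), and GstE10 on the other side had a log2 fold change of -1.04 ± 0.36 (SE, limma adjusted p = 0.188). The log2 fold change of Idgf5 was negative like that of GstE10, but its limma interval ran from -4.78 to 1.11. Neither Idgf5 nor BomS6 nor GstE10 passed the threshold, so no likeness of Idgf5 to either neighbour can be read from these signs.

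Genes with related roles are given by their counts, against 3.11% of all probe sets called and 20.2% with an unadjusted p below 0.05. Of 10 chitinases, the enzymes that degrade chitin and share their fold with Idgf proteins, 0 passed in limma and 4 had an unadjusted p below 0.05. Their median log2 fold change was -0.35, and 4 of 10 were below an intensity of 100 on all arrays. Cht5 was at -2.12 ± 0.72 and Cht4 at 1.21 ± 0.34 (SE), the largest of this list in size, and both were dim. Of 13 measured genes of chitin synthesis and organisation, 0 passed in limma and 5 had an unadjusted p below 0.05, with a median of -0.91. Of these 13 genes, 6 were below an intensity of 100 on all arrays. In this list obst-E was at -1.54 ± 0.38 and Gasp at -1.40 ± 0.56 (SE), both chitin-binding proteins. Gasp was dim, at intensities up to 75.8. Of 6 adenosine deaminase-related growth factors, secreted enzymes that remove extracellular adenosine, 1 passed and 2 had an unadjusted p below 0.05. Their median was 0.00, with 3 positive and 3 negative log2 fold changes. The largest in size was that of Adgf-D, which was lower, at -2.06 ± 0.54 (SE, limma adjusted p = 0.114). Adgf-A rose from 2584 ± 835 to 8626 ± 588 (SD, n = 3 each; log2 fold change 1.79 ± 0.29 (SE), limma adjusted p = 0.038). No member of this list passed without control replicate 2 or 3, without any 1 Idh-R195H array or with arrays centred on their medians. Of 5 clotting genes 0 passed in limma and 0 had an unadjusted p below 0.05, with a median of -1.18. Hml was at 0.01 ± 0.28 (SE) among these, and fon and apolpp, the latter also 1 of the fat body markers above, were at -1.88 ± 0.78 and -1.98 ± 0.82 (SE).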

How the data were processed

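The authors deposited linear intensities, summarised to probe sets. Each array has a trimmed mean of 500.0 when 2% is left out at each end, so the deposited arrays had been scaled to a common mean. Per the submitters' processing notes the tool was Partek 6.0, whose role is not stated. How probes were summarised, and the genome build, is not given in the sources used here. Coordinates are therefore not printed. Per the labels' protocols, biotin-labelled cRNA was made from 6 ug of total RNA.

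Of 18952 probe sets, 183 array controls were left out. Of the 18769 tested, 13647 had 1 gene symbol in the platform annotation, 402 several and 4720 none in the table used here, and 13544 matched a RefSeq table (Release 6 assembly, used for names, chromosomes and neighbours). Values were transformed as log2(value + 1), which understates the change of dim genes, and fitted with limma 3.58.1 (R 4.3.3), two-sided, with p-values adjusted by Benjamini-Hochberg over the 18769. The steps were tested on simulated data. Alternatives were other scalings, a filter on dim probe sets, another constant, another variance prior, the replicate block and leaving out each array. Named genes were all members, Idh, every called member of a gene list or else the 2 of largest change, and the 2 nearest profiles per member. Hml, He, Adgf-D, Tg, Tig, single marker genes and neighbouring genes were added after their values were seen. The members and lists were chosen with earlier results of these data known. Same-numbered arrays of the genotypes correlated at 0.03, 0.02 and -0.07 in their deviations, so the numbers were not taken as pairs. The number of arrays limits the precision.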

Additional observations from a re-analysis of the deposited data

How the results depend on the processing

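The number of called probe sets was 584 (356 higher, 228 lower). It was 1297 without dim probe sets, 888 with a constant of 16, 1253 with an intensity trend and robust prior, 0 with the replicate number as a block and 7022 (6858 higher, 164 lower) after scaling on hybridisation controls. Centring on array medians gave 318 higher and 111 lower. Over arrays left out in turn it ran from 11 (without Idh-R195H replicate 2) to 870. Of the members of the 5 gene lists 1 was called, against 0 with arrays centred on their medians or the replicate block, 10 with hybridisation controls, 2 without dim probe sets and 0 to 2 over arrays left out. With the replicate block the log2 fold change of Idgf2 was 1.75 with an adjusted p of 0.141, and no probe set passed, so the block separates no member from the others. Over arrays left out in turn the log2 fold change of Idgf2 ran from 1.65 to 1.88 (adjusted p 0.0213 to 0.109), and by the exact permutation test it was 1.75 at p = 0.1, which cannot pass. Idgf1 ran from 0.93 to 1.37 over arrays left out, and passed at 2.14 with hybridisation controls and at 1.10 with an intensity trend (adjusted p 0.0431). Idgf6 passed at -1.15 without dim probe sets (adjusted p 0.0166), with a constant of 16 (-1.15, 0.0315) and with an intensity trend (-1.15, 0.00517), and ran from -1.25 to -1.002 over arrays left out. Idgf3 changed sign at 0.23 with array medians, 1.02 with hybridisation controls and 0.28 with its other probe set, and ran from -0.13 to 0.12 over arrays left out. Idgf4 and Idgf5 passed in 0 of 14 alternatives each and kept their sign. Idgf1, Idgf2 and Idgf6 kept their sign in all 14, though Idgf6 was only at -0.11 with hybridisation controls. None of these alternatives scaled the arrays on the polyA controls. The causes were not tested.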

Other observations

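Of the insulin pathway, with which Idgf proteins act in culture, 6 of 11 listed genes had a single-gene probe set used here. None of these 6 passed in limma and 0 had an unadjusted p below 0.05, against 3.11% and 20.2% of all probe sets, with a median log2 fold change of 0.20. The kinase gene Akt was at 0.60 ± 0.42 and chico, the insulin receptor substrate gene, at 0.45 ± 0.25 (SE). One further probe set is annotated to both CG4982 and Idgf4 and was kept out of the Idgf4 values. Its intensity was between 31.1 and 54.0 on the 6 arrays.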
